A study of Arabidopsis thaliana with 60 samples.

Results

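The comparison described here set all triploid plants against all diploid plants of Arabidopsis thaliana, and kept the genes whose expression differed from the diploids in one direction in both kinds of triploid. Of 21450 genes, 9264 met this rule on the deposited normalized counts and on the deposited rlog values (regularized log2 values), 4542 with higher means in triploids and 4722 with lower means. The 10 triploid plants were 5 biparental triploids (BT, 3n), from an ein3-1 2n mother and a 4n pollen donor with the constructs pRPS5a::mGAL4-VP16/- and pUAS::BAR-YFP/-, and 5 triparental triploids (TT, 3n), from an ein3-1 mother by double pollination. The 5 diploid plants (BD, 2n) came from an ein3-1 2n mother and a 2n donor with the same constructs as the BT donor. All 3 groups thus carried 1 maternal chromosome set with the ein3-1 allele, which is 1 of 3 sets in the triploids and 1 of 2 in the diploids, so ploidy and the maternal share of the genome cannot be told apart in this comparison. The plants, of Col-0 background per the study's methods, were selected with 25 mg/l glufosinate, moved to soil 9 days after sowing, checked for YFP and ploidy at 17 days and harvested as aerial tissue at 18 days. Per the study's methods, 4n pollen donors were derived by colchicine treatment, and the RPS5a promoter of the activator construct is ubiquitous. Each plant was represented by 4 technical replicates that had been combined, so n is the number of plants.

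A triploid plant has 3 copies of each chromosome in place of 2. Where every nuclear gene gains a copy, the balance of copies between nuclear genes is kept. Sequencing values divided by a size factor per plant, as here, show only changes of a gene relative to the others. They do not show the amount of RNA per cell, and fewer cells of a type and less RNA per cell cannot be told apart in whole shoots. Cells of polyploid plants are known to be larger, and guard cells are widely used to see this. Genes of the cell cycle, of endoreduplication (DNA replication without division), of the cell wall and of the stomatal lineage were therefore described as lists, next to hormone, stress, light, clock and metabolic genes.

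Between 19534646 and 30756482 reads per plant lay behind the values. The leaf mesophyll genes RBCS1A, LHCB1.3 and CAB2 were abundant in every plant, as the tissue label implies, with a summed level of 26283 to 50274 TPM (transcript abundance scaled for gene length and depth) in triploids and 35265 to 49410 TPM in diploids. The root gene PYK10 was at 13.8 to 43.7 TPM in triploids and 13.2 to 24.4 TPM in diploids. In 4 plants a long stretch of genes stood above the other plants. The median gene of chromosome 4 was 0.34 higher on the log2 scale in BT plant 2, that of chromosome 5 was 0.30 higher in BT plant 5, and that of the distal part of chromosome 1, from AT1G70250 on, was 0.24 higher in BT plant 5, 0.34 higher in BT plant 3 and 0.50 higher in BD plant 4. For the named genes in these regions that are described below with an unadjusted p under 0.05, the value without these 4 plants is given too, except for CYP707A1 and CYP81G1.

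No gene passed the threshold of the comparison. In limma's moderated test on log2(normalized count + 1), 0 of 21450 genes (0.0%) fell under 0.05 after Benjamini-Yekutieli adjustment. The smallest unadjusted p was 0.000295, for AT3G16750, and its adjusted value was 1. An unadjusted p under 0.05 was found for 278 genes (1.3% of all tested), 126 of them higher (0.587%) and 152 lower (0.709%) in triploids. All 278 had one direction in BT and TT, which is largely set by testing the mean of BT and TT. At this threshold 1072.5 genes would be expected if no gene differed, so the 278 are fewer than that. Dependence between genes widens the spread of such a count, not its mean. On the recovered reads, edgeR's quasi-likelihood test and DESeq2 also called 0 genes after Benjamini-Yekutieli or Benjamini-Hochberg adjustment, with 329 and 236 genes at an unadjusted p under 0.05, of which 226 and 180 were among the 278. All genes named below therefore failed the correction for 21450 tests, with an adjusted p of 1 in limma, and are described by their values and their unadjusted p.

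The differences between ploidies were small beside the spread between plants. Among 18783 genes averaging 10 or more normalized counts, the median gene moved by 0.07 on the log2 scale in either direction, while the median spread of a gene among plants of one group was an SD of 0.28. The median standard error of the log2 fold change was 0.15, and for 75.3% of these genes the 95% interval of the fold change lay within 1.5-fold in either direction. Only 43 of them, 0.229%, had a mean difference of more than 2-fold, and the median log2 fold change was -0.003.

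The spread of the fold changes and their errors were widest at low expression. Genes were split by mean TPM into 4 classes of equal size. In the lowest class (up to 1.89 TPM), the log2 fold changes had an SD of 0.36 and a median standard error of 0.35, and 85 genes were higher and 76 lower at an unadjusted p under 0.05. In the second class (1.89 to 7.66 TPM) 27 were higher and 43 lower, and in the third (7.66 to 21.9 TPM) 7 were higher and 24 lower. In the highest class the SD was 0.11, with 7 genes higher and 9 lower. One direction in BT and TT was seen for 51.9% of the lowest class and for 35.1% of the highest, with 44.8% and 41.0% in between. The genes with an unadjusted p under 0.05 had a median level of 0.617 TPM where higher and 1.86 TPM where lower in triploids, against 7.66 TPM over all genes.

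**Figure D1:**
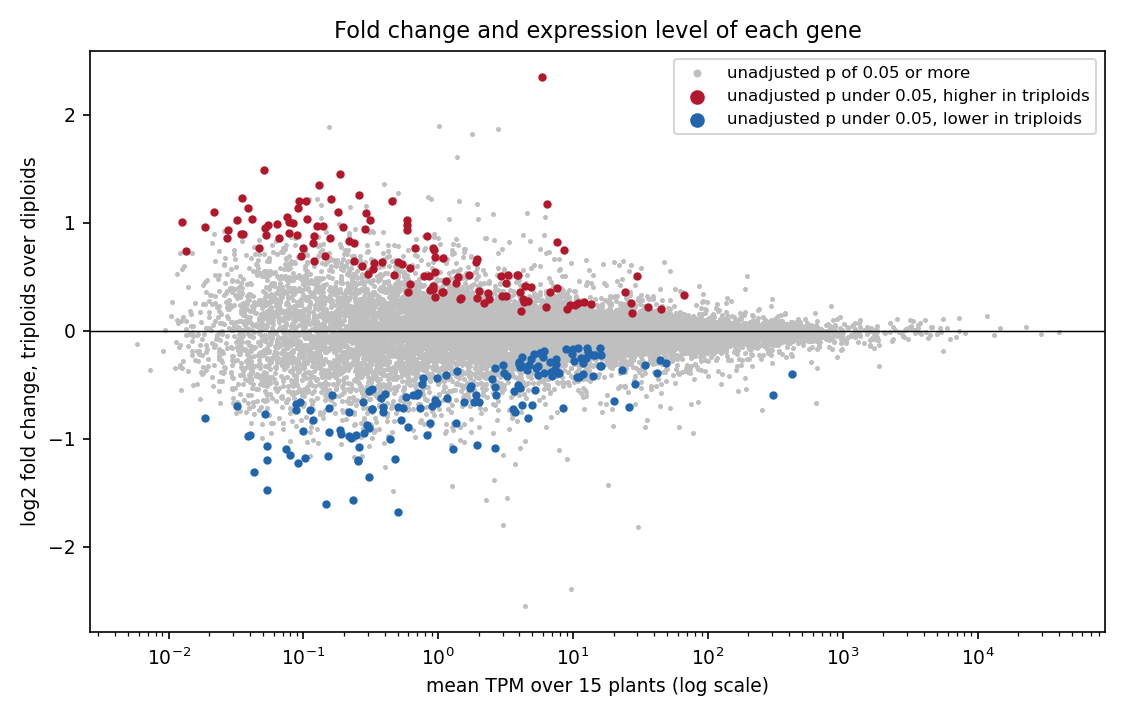
Each point is a gene, with its mean TPM over the 15 plants on the horizontal log axis and its log2 fold change of triploids (BT and TT) over diploids (BD) on the vertical axis; 2 genes with a mean TPM of 0 are left out. The 126 red and 152 blue genes (unadjusted p under 0.05 in limma) lie mostly at low levels, and the spread around 0 narrows towards the genes with the highest TPM.

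The rule of one direction says little by itself, because BT and TT were both compared with the same 5 diploid plants. A shared reference favours agreement, yet most genes did not meet the rule. Of 17080 genes on chromosomes 1, 2, 4 and 5, 676 were higher and 921 lower in TT than in BT (limma, unadjusted p under 0.05). The pooled comparison had 107 higher and 95 lower there, so pooled values can average opposite directions. Genes higher in both triploids made up 21.2% of all genes and genes lower in both made up 22.0%. On chromosome 5, 1419 genes were higher in both and 806 lower, and on chromosome 4, 902 were higher and 498 lower, while chromosomes 1, 2 and 3 held more lower than higher genes (1428 against 967, 831 against 547 and 1107 against 685). Without the 4 plants with raised regions, chromosome 5 had 1303 higher and 1384 lower genes and chromosome 4 had 826 higher and 923 lower, so the excess of higher genes on both was gone. On chromosome 3, 1147 were then higher and 1201 lower.

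A stricter view asks for genes in which no triploid plant overlapped a diploid plant. This held for 2 higher genes (0.00932% of all) and 5 lower genes (0.0233%), which were picked out after their values were seen. Among so many genes some could separate in this way even if none differed, and how many was not computed. The 2 and 5 genes are thus given as a description only, not as a finding beyond that number. The higher ones were CYCA2;1 (AT5G25380), an A2-type cyclin of the mitotic cell cycle, and AT3G26770, annotated as an NAD(P)-binding protein. The lower ones were AT3G26380, annotated as a melibiase family protein, UBC37 (AT3G24515), a ubiquitin-conjugating enzyme, AT1G71680, an amino acid transporter family gene, ATECP31 (AT3G22500), a seed maturation protein, and the mitochondrial ATMG00570. Of these 7 genes, 4 were on chromosome 3. Only AT3G26380, UBC37 and AT1G71680 averaged 10 or more normalized counts.

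CYCA2;1 had normalized counts of 9.01, 13.3, 9.33, 7.81 and 9.73 in BT plants and 8.89, 9.75, 7.68, 10.7 and 13.4 in TT plants, against 7.37, 1.27, 5.49, 6.14 and 3.75 in BD plants. Every triploid plant was thus above every diploid plant, though by little for the lowest, and all values were low. The level was 0.373 TPM in triploids and 0.185 TPM in diploids, a log2 fold change of 1.03 with a standard error of 0.28 (limma, unadjusted p = 0.00202, and 0.0125 without the 4 plants with raised regions). AT3G26770 was lower still, at 4.05 ± 1.44 (SD, n = 10) in triploids and 1.31 ± 0.922 (SD, n = 5) in diploids. A normalized count is close to 1 read at this depth, so a gene at such a level rests on a handful of reads per plant.

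EIN3 (AT3G20770), the ethylene response transcription factor that is mutated in the mother, was among the 12 higher genes with the smallest unadjusted p of those averaging 10 or more normalized counts. Its normalized counts ran from 1512 to 1939 with a median of 1694 in triploids, against 1225, 1348, 1430, 1560 and 1592 in diploids. 7 of 10 triploid plants exceeded the highest diploid plant, and the log2 fold change was 0.26 (95% interval 0.07 to 0.45; limma, unadjusted p = 0.00975). The values do not separate the ein3-1 transcript from that of the paternal allele. Among the 25 measured genes of the ethylene list, EIN3 was the only one with an unadjusted p under 0.05. In both triploids 11 members were higher and 5 lower, against 21.2% and 22.0% over all genes, shares that also apply to the lists below. The list median was 0.03, against -0.003 over all genes. Other members are named here for their place in the pathway, after their values were seen. Of the receptors, ETR1 was at -0.01 (standard error 0.10) and ETR2 at 0.34 (standard error 0.31), and CTR1, the kinase downstream of them, was at 0.08 (standard error 0.13). Of the targets of EIN3, ERF1 had 5.44 normalized counts in triploids and 11.0 in diploids (unadjusted p = 0.0546), EBF1 was at -0.18 and EBF2 at 0.14 on the log2 scale.

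**Figure D2:**
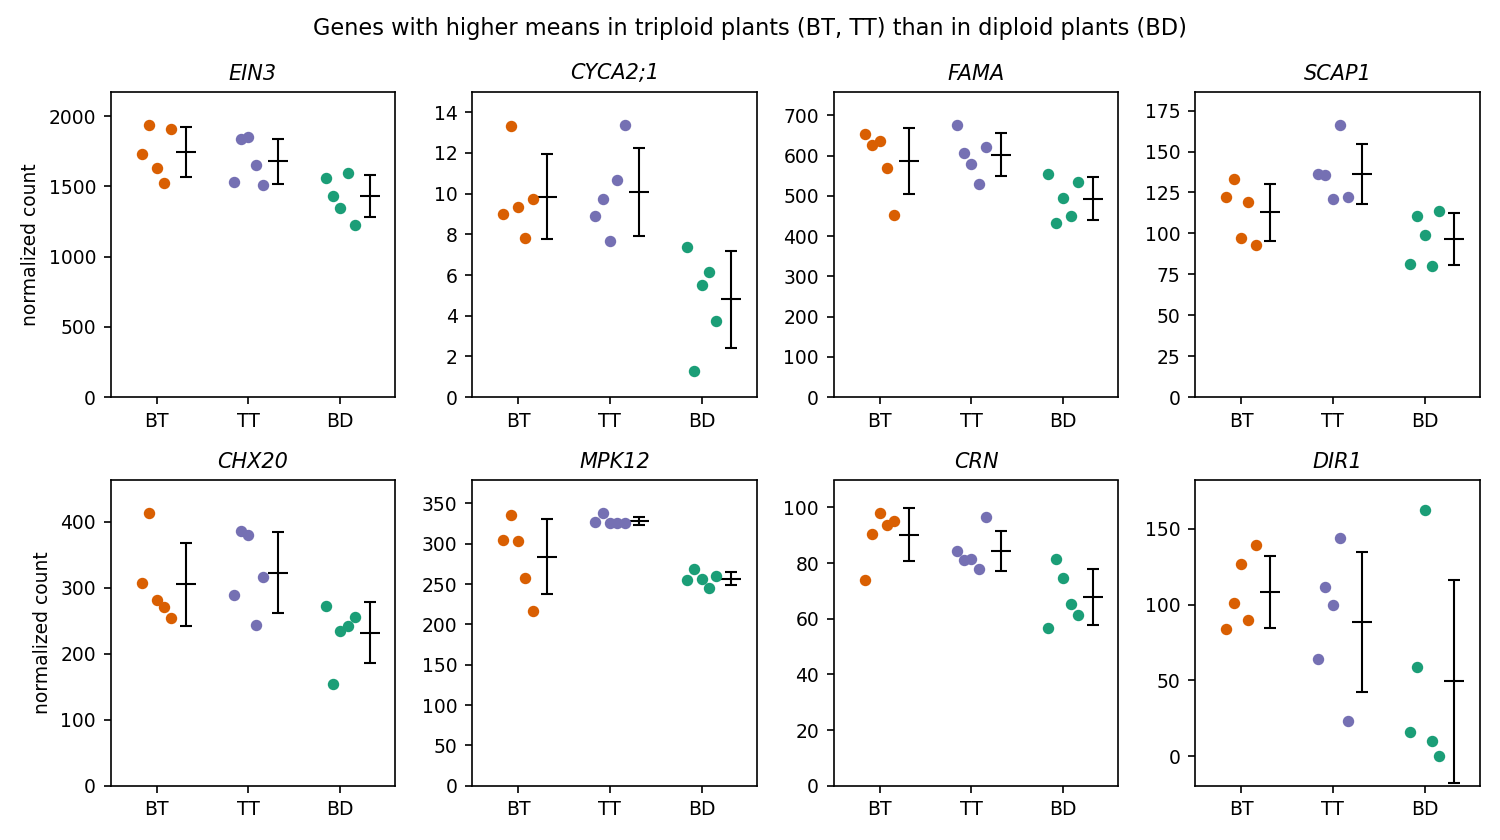
Normalized counts of 8 genes, 1 point per plant, in BT (left), TT (middle) and BD (right), with the mean and SD of each group (n = 5) as a black bar; the linear axes include 0. CYCA2;1 is the gene in which the 10 triploid plants lie above all diploid plants, whereas in the other genes the groups overlap, most widely in DIR1, where BD plant 3 had the highest value of all.

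FAMA, SCAP1 and CHX20 are known from the stomatal lineage or from guard cells. FAMA and SCAP1 were named from 2 lists, and CHX20 as 1 of the 12 higher genes with the smallest p. Both rules chose by the unadjusted p of the same fit, so their naming together supports nothing. FAMA (AT3G24140), the transcription factor that turns guard mother cells into guard cells, averaged 595 ± 65.7 normalized counts in triploids (SD, n = 10) and 493 ± 52.4 in diploids (SD, n = 5). In 8 of 10 triploid plants it was above the highest diploid plant, and its lowest value, 453, was that of BT plant 5. The log2 fold change was 0.27 with a standard error of 0.10 (limma, unadjusted p = 0.0163). SCAP1 (AT5G65590), a Dof transcription factor of guard cell maturation, averaged 125 ± 20.8 in triploids and 96.8 ± 15.9 in diploids (log2 fold change 0.36, standard error 0.13, unadjusted p = 0.0152, and 0.0275 without the 4 plants with raised regions). The SCAP1 log2 fold change was 0.22 in BT and 0.49 in TT, both over the same diploids. CHX20 (AT3G53720), a cation/proton exchanger known from guard cells, averaged 314 ± 59.3 in triploids and 232 ± 45.9 in diploids, with a log2 fold change of 0.44 (standard error 0.15, unadjusted p = 0.012).

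A further pair of guard cell genes was noticed after their values were seen. MPK12 (AT2G46070), a MAP kinase of guard cell signalling, had 325 to 338 normalized counts in the 5 TT plants and 217 to 335 in BT plants, against 245 to 268 in BD plants, and KAT2 (AT4G18290), an inward potassium channel, averaged 71.8 ± 18.8 in triploids and 49.4 ± 7.64 in diploids (unadjusted p = 0.0233, and 0.0107 without the 4 plants with raised regions). The TT plants were tightly grouped for MPK12 and all above the diploids, while BT plant 5 was below all of them. Each of these 5 genes was lower in BT plant 5 than in any other triploid plant, except CHX20, for which TT plant 4 was lower. Without BD plant 2 the unadjusted p was 0.0537 for CHX20 and 0.0552 for FAMA, without BD plant 1 or 4 it was 0.0512 and 0.0513 for SCAP1, and without BD plant 3 or 4 it was 0.0721 and 0.0506 for KAT2.

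The medians of the whole lists were smaller, which follows from naming these genes by their p or after their values were seen. Of 16 measured genes of stomatal development, 5 were higher and 0 lower in both triploids, against 21.2% and 22.0% over all genes. Of these 16, 1 had an unadjusted p under 0.05, and the list median was 0.13. Medians of the list were -0.06 in BT and 0.30 in TT, both against the same diploids, and the plants of one group differed in their list median by an SD of 0.23. SPCH, MUTE and FAMA, named together because they act in this order in the lineage, had log2 fold changes of 0.08, 0.17 and 0.27. The 4 guard cell markers SCAP1, HT1, KAT1 and MYB60 had a median of 0.13, and their summed level was 19.8 to 42.6 TPM in triploids and 25.9 to 36.9 TPM in diploids. The 4 epidermal markers ATML1, PDF1, PDF2 and FDH had a median of 0.12. Their summed levels were 188 to 345 TPM in triploids and 189 to 314 TPM in diploids. The epidermal median was -0.04 in BT and 0.27 in TT, and the guard cell median 0.08 in BT and 0.19 in TT. For both marker lists the diploid range of summed levels lay within that of the triploids, and their part in the values of the guard cell genes was not tested.

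The remaining higher genes chosen by smallest p had diverse annotations, and AT1G63070, AT1G64180, AT5G24352 and AT1G15900 among them are not described further. CRN (AT5G13290), a membrane-bound pseudokinase that works with CLAVATA2 in shoot meristem signalling, averaged 87.3 ± 8.52 in triploids and 67.8 ± 10.1 in diploids (log2 fold change 0.37, standard error 0.12, unadjusted p = 0.00737). STM, a meristem homeobox gene named from the shoot meristem markers and not by this rule, averaged 12.1 ± 3.99 in triploids and 7.87 ± 3.08 in diploids (unadjusted p = 0.0826). Without the 4 plants with raised regions the unadjusted p of CRN was 0.0633. AT1G30020, a DUF538 gene, had 13.6 ± 3.04 in triploids and 8.12 ± 1.41 in diploids, and 9 of 10 triploid plants were above all diploids. AT1G11340, a lectin receptor-like kinase gene, and AT5G18430, a GDSL lipase gene, were likewise above the highest diploid plant in 9 of 10 triploid plants, with log2 fold changes of 0.30 and 0.40, the second being 0.41 without the 4 plants with raised regions (unadjusted p = 0.00337). For AT5G18430 the exception was BT plant 5, at 91.9, which was below all diploids. LRP1 (AT5G12330), a zinc-finger gene first described in lateral root primordia, averaged 22.0 ± 4.83 in triploids and 13.9 ± 3.75 in diploids (unadjusted p = 0.0102, and 0.0617 without the 4 plants with raised regions).

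DIR1 (AT5G48485), a lipid-transfer protein of systemic acquired resistance, had the largest log2 fold change of the named genes in limma, but not in edgeR or DESeq2. It had 84.1, 101, 127, 89.8 and 139 normalized counts in BT plants and 64.0, 112, 99.9, 144 and 23.0 in TT plants, against 15.6, 58.5, 162, 9.99 and 0 in BD plants. The diploid plants thus spanned the whole range, and 1 of them had no read. The fitted log2 fold change of 2.35 (standard error 0.83) depends on the pseudocount of 1, and it was 1.00 in edgeR and 0.99 in DESeq2, and 1.31 to 3.15 in limma when 1 plant at a time was left out. The unadjusted p was 0.0128 in limma, 0.154 in edgeR and 0.193 in DESeq2, and 0.101 in limma without the 4 plants with raised regions. Of 19 other genes of defence by salicylic acid, 0 were higher and 1 was lower in both triploids, and the list median was -0.13. The median was 0.32 in BT and -0.52 in TT, both against the same diploids, so the pooled value averages opposite signs. Plants of one group differed by an SD of 0.93 in the list median, the widest spread of the 20 pathway lists.

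The lower genes were concentrated on chromosome 3. Of the 12 lower genes with the smallest unadjusted p among those averaging 10 or more normalized counts, 9 were on chromosome 3, against 2 of the 12 higher ones. Chromosome 3 held 19.6% of all genes tested, 35.5% of the 152 lower genes (54) and 15.1% of the 126 higher ones (19). Lower genes made up 1.28% of the genes of chromosome 3, against 0.602% on chromosome 1, 0.65% on chromosome 2, 0.371% on chromosome 4 and 0.564% on chromosome 5. This position was noticed after the values were seen, so it is given as a description without a test.

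The first of these genes was AT3G16750, whose product is uncharacterized. It had 72.1, 48.6, 61.6, 70.3 and 48.6 normalized counts in BT plants and 69.3, 71.5, 56.7, 87.5 and 79.4 in TT plants, against 120, 94.2, 138, 83.0 and 116 in BD plants. Only TT plant 4 reached the range of the diploids. The log2 fold change was -0.72 with a standard error of 0.16 (95% interval -1.05 to -0.39).

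Cytochrome P450 genes, whose products are mostly oxidases of secondary metabolism and hormones, were named several times, and 4 of chromosome 3 were lower at an unadjusted p under 0.05. CYP71B26 (AT3G26290) averaged 1211 ± 155 in triploids and 1587 ± 180 in diploids (log2 fold change -0.39, standard error 0.10, unadjusted p = 0.00119), and its highest triploid value, 1568, came from BT plant 3. CYP72A11 (AT3G14650) averaged 1244 ± 144 in triploids and 1602 ± 191 in diploids (log2 fold change -0.36, standard error 0.09), and the pseudogene CYP77A5P (AT3G18270) averaged 282 ± 24.4 in triploids and 369 ± 45.9 in diploids (log2 fold change -0.38, standard error 0.09). CYP71B20 (AT3G26180), a neighbour of CYP71B26 in the same subfamily, averaged 1498 ± 392 in triploids and 1818 ± 203 in diploids (unadjusted p = 0.042). Of the 152 genes whose annotation names cytochrome P450, 7 were lower and 0 higher at this threshold, where 0.709% of all genes were lower and 0.587% higher, the others being CYP708A1, CYP81G1 and CYP707A1 (AT4G19230), an abscisic acid 8'-hydroxylase with 28.3 ± 6.08 in triploids and 42.1 ± 6.95 in diploids. The family was singled out after the values were seen, its median log2 fold change was -0.0002, and 35 members were higher and 33 lower in both triploids. P450 genes lie in clusters of similar copies, and the alignment allowed reads to match more than 1 place, so the split between close copies is uncertain.

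**Figure D3:**
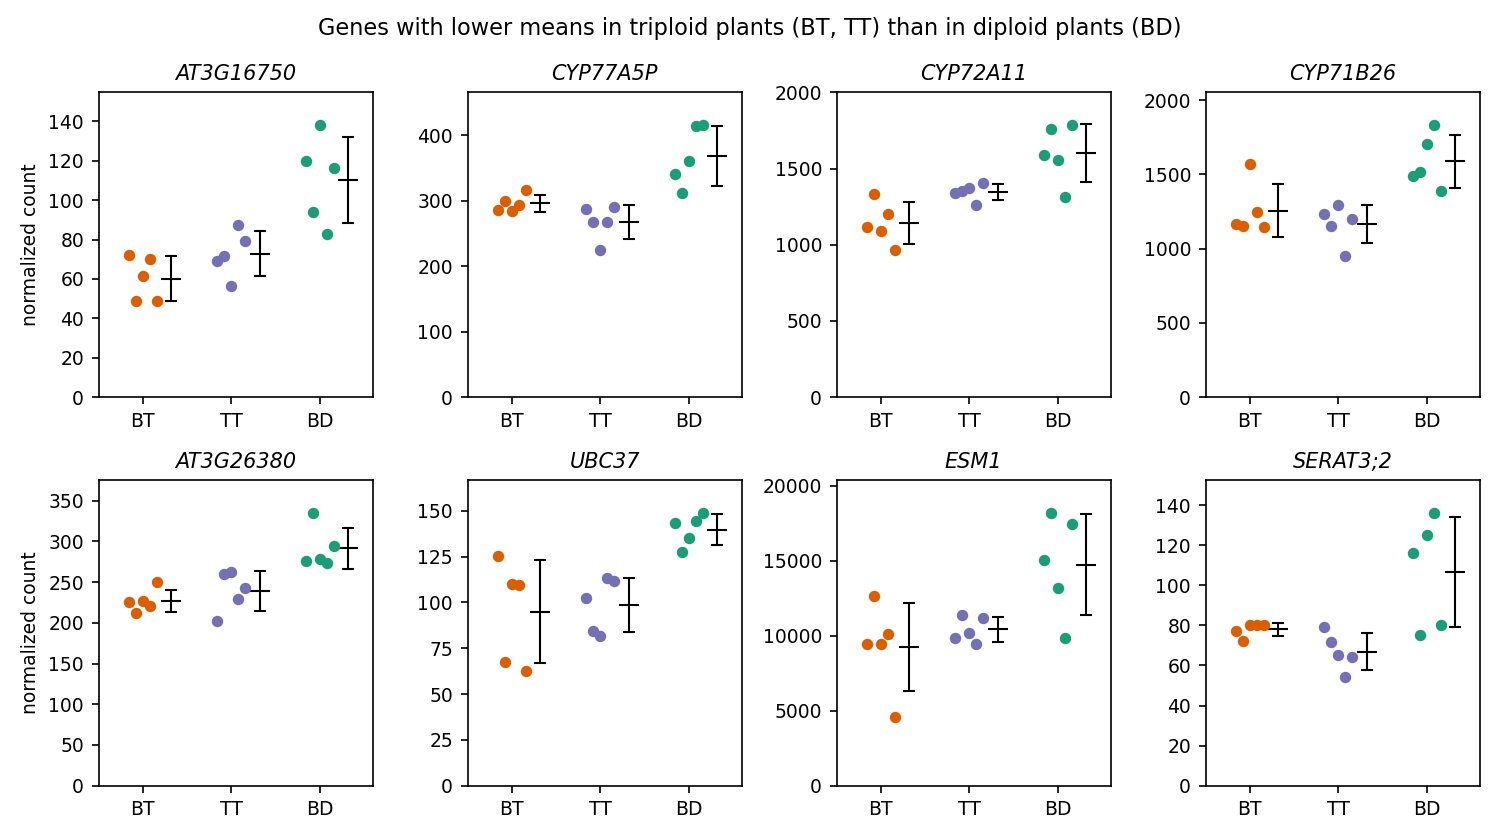
Normalized counts of 8 genes, 1 point per plant, in BT (left), TT (middle) and BD (right), with the mean and SD of each group (n = 5) as a black bar; the linear axes start at 0. In AT3G26380 and UBC37 all 10 triploid plants lie below the 5 diploid plants, and in AT3G16750, CYP77A5P and CYP71B26 all but 1 do.

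AT3G26380 had 203 to 262 normalized counts in the 10 triploid plants and 273 to 335 in the 5 diploid plants, with no overlap (log2 fold change -0.32, standard error 0.09, unadjusted p = 0.00224). UBC37 had 62.7 to 125 in triploids and 127 to 149 in diploids, also without overlap (log2 fold change -0.56, standard error 0.16). Both genes lie on the same side of EIN3, 440 and 295 genes away among those measured. AT3G27870, annotated as an E1-E2 type ATPase, averaged 113 ± 17.3 in triploids and 161 ± 27.0 in diploids, and AT3G19515, annotated as an apoptosis inhibitor, 254 ± 33.9 in triploids and 317 ± 27.5 in diploids. AT3G27906, of unknown function, averaged 169 ± 25.2 in triploids and 222 ± 28.3 in diploids.

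Among the abundant genes of the chromosome, ESM1 (AT3G14210) stood out after its values were seen. ESM1 steers the breakdown of glucosinolates towards isothiocyanates. It had 9441, 12674, 9446, 10097 and 4614 normalized counts in BT plants and 9845, 11413, 10207, 9484 and 11196 in TT plants, against 15049, 18179, 13171, 9853 and 17444 in BD plants. The 4 highest plants were diploid, and BD plant 4 lay within the range of the triploids. The mean level was 259 TPM in triploids and 389 TPM in diploids, a log2 fold change of -0.59 with a standard error of 0.20 (limma, unadjusted p = 0.00859). The 16 genes of aliphatic glucosinolate synthesis had a list median of -0.04 (-0.08 in BT and 0.02 in TT). None had an unadjusted p under 0.05, and their pooled log2 fold changes ran from -0.12 to 0.05.

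In the order of measured genes along chromosome 3, the lower genes were densest in the middle. In bins of 250 genes, the 5 bins from AT3G15352, 500 genes before EIN3, to AT3G43220, 749 genes after it, held 5 to 7 lower genes each and 0 to 2 higher ones. The other bins of the chromosome held 0 to 4 lower genes. 12 of the 14 chromosome 3 genes with an unadjusted p under 0.01 and lower values lay between AT3G14210 and AT3G27930, a span set after the values were seen, in which 31 of 1195 genes (2.59%) were lower at an unadjusted p under 0.05, against 0.765% in the rest of chromosome 3 and 0.556% on the other chromosomes. The median gene of the span was at -0.02, as was that of the rest of the chromosome. EIN3, at the centre, was itself higher in triploids, as were FAMA, 266 genes away, and AT3G21530, a DNase I-like gene 61 genes away with 117 ± 24.6 in triploids and 82.2 ± 22.7 in diploids.

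**Figure D4:**
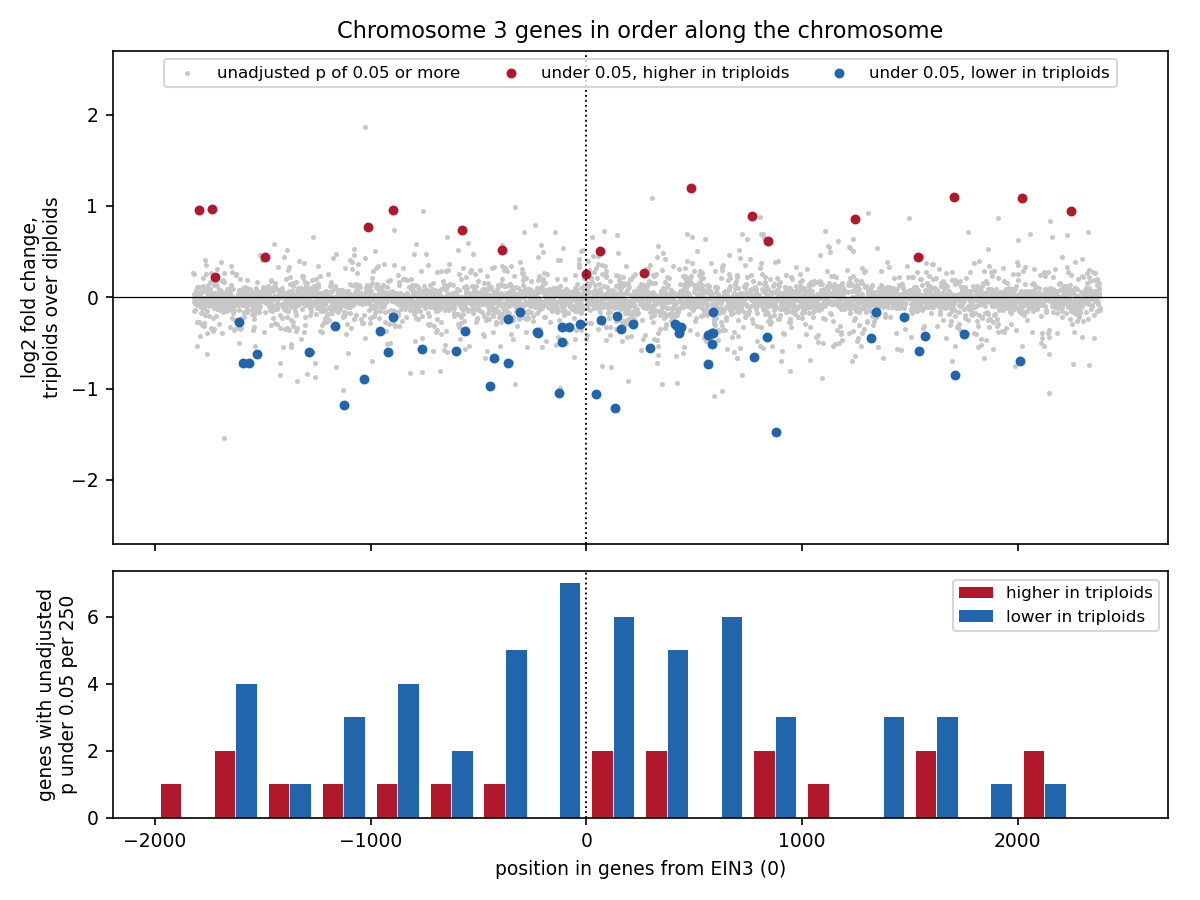
Genes of chromosome 3 by their position in measured genes from EIN3 (dotted line at 0). The upper panel plots the log2 fold change of triploids over diploids for each gene, and the lower panel counts the genes with an unadjusted p under 0.05 in bins of 250 genes, except the bins at the left and right ends, which hold 72 and 131 genes. The bins nearest to EIN3 hold 7 and 6 lower genes, and the shorter bins at the ends hold none.

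The share of lower genes on chromosome 3 was recounted under other settings. Between 39 and 74 lower genes were counted on chromosome 3 when 1 plant at a time was left out, and they made up 29.1% to 38.3% of all lower genes. Without the 4 plants with raised regions, 51 lower genes were on chromosome 3, 27.7% of 184. BT over BD alone gave 71 of 205 (34.6%) and TT over BD alone 79 of 303 (26.1%), 2 comparisons that share the diploids. The median gene of chromosome 3 lay between -0.09 in BT plant 5 and 0.01 in TT plant 3 on the log2 scale, and in the span named above BT plant 5 was at -0.12. Alleles were not measured, so the ein3-1 maternal copy of this region and the paternal copies cannot be told apart, and ploidy and maternal share cannot either.

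Of the lower genes off chromosome 3, SERAT3;2 (AT4G35640), a serine acetyltransferase on the path to cysteine, averaged 72.4 ± 8.74 in triploids and 106 ± 27.4 in diploids, but BD plants 2 and 5, at 75.1 and 79.9, lay among the triploids. Its unadjusted p was 0.0033, and 0.0388 without the 4 plants with raised regions. AT1G71680 had 5.40 to 15.4 normalized counts in triploids and 17.2 to 27.5 in diploids. AT1G12390, a cornichon family gene, averaged 125 ± 15.6 in triploids and 160 ± 22.6 in diploids. AT1G71680 lies in the distal part of chromosome 1 that was raised in BD plant 4 and in BT plants 3 and 5, and its log2 fold change was -0.64 without the 4 plants (unadjusted p = 0.0112) and -0.75 with them.

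Of 24 mitotic cell cycle genes, 3 were higher and 5 lower in both triploids, only CYCA2;1 had an unadjusted p under 0.05, and the median was -0.004, from -0.10 in BT and 0.09 in TT against the same diploids. The B-type cyclins CYCB1;1 and CYCB1;2, named as markers of cells before mitosis, were at 0.01 and -0.03 on the log2 scale, with standard errors of 0.17 and 0.11. Of 24 genes of endoreduplication and cell cycle inhibition, 4 were higher and 7 lower, none had an unadjusted p under 0.05, and the median was -0.03. KRP3, an inhibitor of cyclin-dependent kinases, came closest, with 50.6 ± 10.7 in triploids and 40.0 ± 12.4 in diploids (unadjusted p = 0.0783, and 0.019 without the 4 plants with raised regions).

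Replication, chromatin and repair genes were described in the same way. Of 17 replication genes, 5 were higher and 1 lower in both triploids, the median was 0.02 (-0.04 in BT and 0.14 in TT), and MCM3, a helicase subunit, led with 677 normalized counts in triploids and 587 in diploids (log2 fold change 0.21, unadjusted p = 0.105, and 0.0317 without the 4 plants with raised regions). The replication median was 0.20 without the 4 plants with raised regions. Of 28 histone genes 9 were higher and 1 lower, against 21.2% and 22.0% over all genes. The histone median was 0.04 (0.08 in BT and -0.02 in TT), and pooled log2 fold changes ran from -0.23 to 0.16. The centromeric histone HTR12 averaged 96.7 in triploids and 90.8 in diploids (unadjusted p = 0.66). Of 12 genes of the DNA damage response, 2 were higher and 1 lower. Of 16 genes of DNA methylation and silencing, 8 were higher and 0 lower in both triploids, against 21.2% and 22.0% over all genes. All 16 had a positive log2 fold change, and the median was 0.10, against -0.003 over all genes. The values of this list ran from 0.01 for CMT3 to 0.18 for DCL3 and DDM1, none had an unadjusted p under 0.05, and the list median was 0.00 when BT was set against BD and 0.23 when TT was. The plants of a group differed by an SD of 0.19 in this list.

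Expansins and xyloglucan endotransglucosylases loosen and remodel the wall of growing cells. Of 23 such genes, 2 were higher and 9 lower in both triploids, none had an unadjusted p under 0.05, and the median was -0.11 (-0.24 in BT and 0.06 in TT). XTH30 was at 95.1 ± 50.9 in triploids and 125 ± 56.6 in diploids. The 8 cellulose synthases had a median of 0.001 (-0.12 in BT and 0.14 in TT), and all pooled values lay between -0.07 and 0.05.

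**Figure D5:**
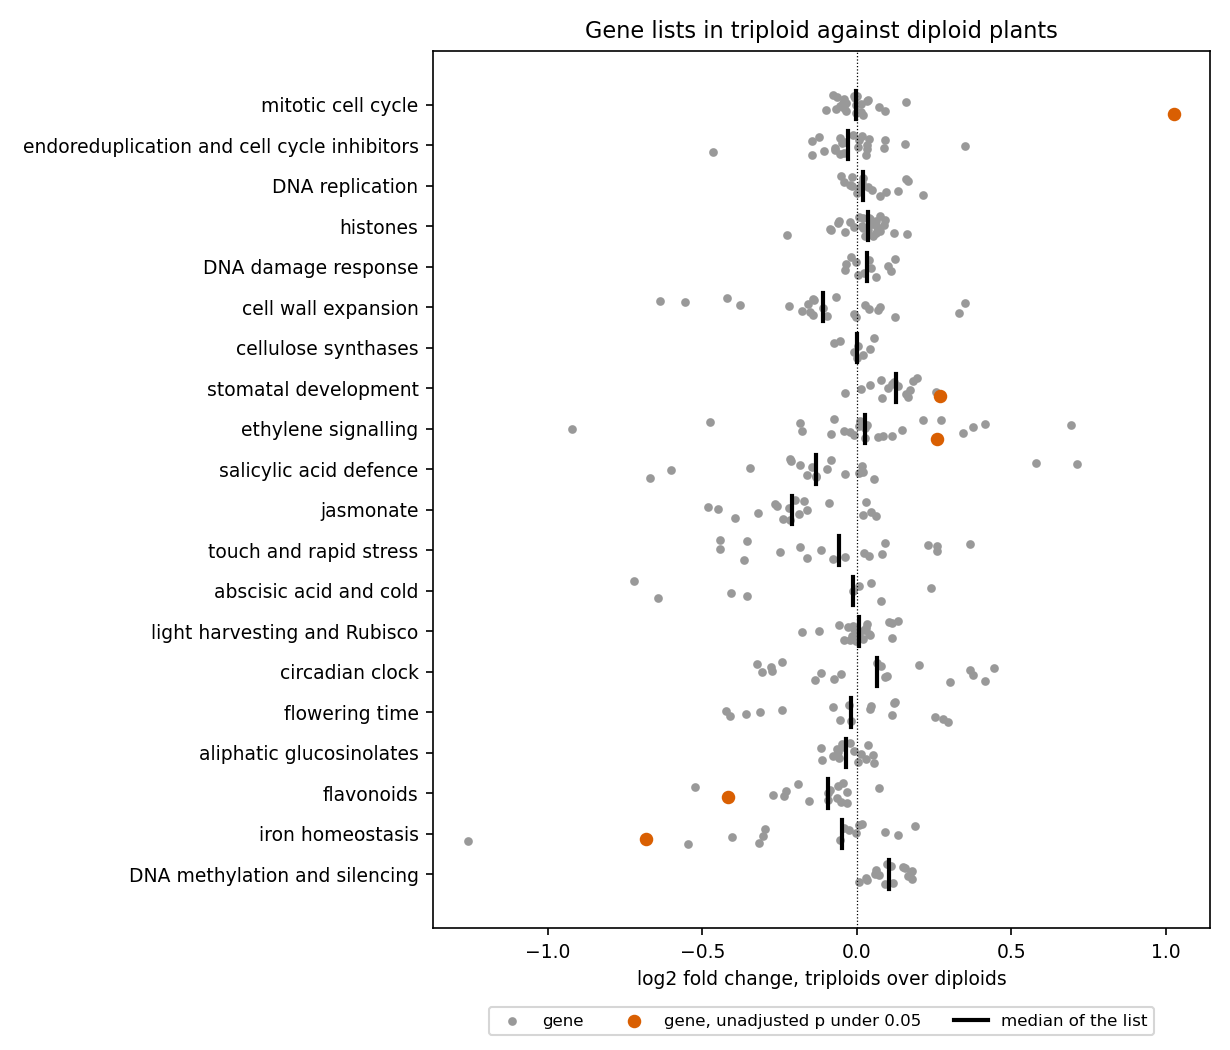
Log2 fold changes of triploids over diploids for the measured genes of 20 pathway lists, 1 point per gene, with the median of each list as a black bar. The 5 larger orange points are the members with an unadjusted p under 0.05 in limma (CYCA2;1, FAMA, EIN3, DFR and IMA1), and list medians lie between -0.21 for jasmonate and 0.13 for stomatal development.

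Jasmonate genes had the lowest list median, -0.21. Of 18 members, 13 were lower and 1 higher in both triploids, against 22.0% and 21.2% over all genes, and no member had an unadjusted p under 0.05. Of the enzymes of jasmonate synthesis, AOS and AOC1 were at 0.06 and 0.02, whereas LOX2, LOX3, LOX4, AOC2 and OPR3, singled out after their values were seen, had log2 fold changes between -0.39 and -0.19, and JAZ1, a repressor that jasmonate itself induces, averaged 976 ± 292 in triploids and 1330 ± 510 in diploids (log2 fold change -0.45, standard error 0.29, unadjusted p = 0.135). Summed levels of the list were 893 to 1475 TPM in triploids and 1119 to 1457 TPM in diploids. Plants of one group differed by an SD of 0.32 in the list median, and genes of one hormone response are not separate observations. Genes of touch and rapid stress had a median of -0.06, with 4 lower and 1 higher of 18, and list medians of 0.34 in BT and -0.43 in TT.

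Of the other lists, flavonoid genes had 9 of 17 members lower and 0 higher in both triploids, against 22.0% and 21.2% over all genes, with a median of -0.09. The median was -0.22 without the 4 plants with raised regions and -0.16 without the plants numbered 1. DFR (AT5G42800), an enzyme of anthocyanin synthesis, averaged 398 ± 103 in triploids and 532 ± 145 in diploids (log2 fold change -0.42, standard error 0.19, unadjusted p = 0.0484), and leaving out any 1 of 10 of the 15 plants put its p above 0.05, while without the 4 plants with raised regions it was 0.0033. In the iron list, IMA1, a peptide that signals iron deficiency, averaged 23.0 ± 11.1 in triploids and 38.0 ± 17.6 in diploids (limma, unadjusted p = 0.0383). Its mean was 29.3 in BT and 16.7 in TT, with log2 fold changes of -0.31 and -1.05 over the same diploids. Leaving out any 1 of 9 of the 15 plants put the pooled p of IMA1 above 0.05, up to 0.136 without BD plant 4. Among members named after their values were seen, BHLH100, a transcription factor of the same response, had 4.56 normalized counts in triploids and 11.2 in diploids (unadjusted p = 0.0759), whereas the ferritin FER1 was at 3692 in triploids and 3173 in diploids.

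The clock list had 9 of 19 genes higher and 3 lower in both triploids, against 21.2% and 22.0% over all genes. The list median was 0.07, and 0.008 without the 4 plants with raised regions. Its log2 fold changes ran from -0.32 for BOA to 0.44 for RVE1, 10 of them positive and 9 negative. None of the 19 had an unadjusted p under 0.05, LUX being closest (0.058), and the harvest time of single plants was not given. Of 17 flowering time genes 3 were higher and 5 lower, with a median of -0.02. Of 9 abscisic acid and cold genes 1 was higher and 4 lower, the list median was 0.15 in BT and -0.29 in TT, and the smallest p was that of COR15B, with 1080 ± 281 in triploids and 1455 ± 484 in diploids (unadjusted p = 0.0853).

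The most abundant transcripts differed by less than their standard errors. LHCB1.3 averaged 500520 ± 116513 normalized counts in triploids and 513674 ± 128653 in diploids, and RBCS1A, a Rubisco small subunit, 535922 ± 106770 in triploids and 519782 ± 99505 in diploids. The 22 genes of light harvesting and Rubisco had a median log2 fold change of 0.01, with 1 higher and 3 lower in both triploids. Their median was -0.10 in BT and 0.10 in TT. MT1A, the gene with the highest mean TPM, was at 5468 ± 1767 in triploids and 5462 ± 2025 in diploids, and RPS5A, whose promoter drives the activator construct, at 8174 ± 1218 in triploids and 8050 ± 985 in diploids. SCO1, a plastid elongation factor, averaged 13242 ± 2659 in triploids and 12654 ± 1969 in diploids.

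Plastid genes took 0.089% ± 0.0237 of the normalized counts in triploids (SD, n = 10) and 0.0898% ± 0.0251 in diploids (SD, n = 5), a difference of -0.000707 percentage points (exact 2-sided permutation test, p = 0.957). Mitochondrial genes took 0.00476% ± 0.00129 in triploids and 0.0051% ± 0.000866 in diploids (difference -0.000347 percentage points, exact 2-sided permutation test, p = 0.614). The libraries were made from poly(A) RNA, which holds few organelle transcripts. Of 79 mitochondrial genes, 3 were lower at an unadjusted p under 0.05 and 0 higher, against 0.709% and 0.587% over all genes. Among the 3 was ATMG00570, which had 0.953 to 3.56 normalized counts in triploids and 3.82 to 6.25 in diploids.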

How the data were processed

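RNA of 15 plants, 5 each of BT, TT and BD, was sequenced as poly(A) libraries with 75 bp single reads and 4 technical replicates per plant. Per the labels and the study's methods, the authors trimmed reads with Trimmomatic 0.38, aligned them to TAIR10 with STAR 2.6.0c, keeping reads with up to 50 places, counted genes with Salmon 0.11.3 without strand (EnsemblGenomes release 36), kept genes with reads in at least 3 of 5 plants of a genotype, and used DESeq2 1.22. The deposited normalized counts are a signal, gene counts divided by a size factor per plant. The deposited rlog values are on a log2 scale and shrink low genes. The deposited TPM values are per gene length. Dividing the normalized counts by their smallest step gave whole reads for 100% of values within 0.001, so depth is known, and columns not used numbered 0.

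The main test was limma 3.58.1 (R 4.3.3) with a trend on log2(normalized count + 1), 3 group means and the mean of BT and TT minus BD. The p-values were adjusted over all 21450 genes by Benjamini-Yekutieli at 0.05, the study's choice. A fold change on this scale can understate that of low genes. It can also exceed that of the count tests where some plants had few or no reads, as for DIR1 (2.35, against 1.00 in edgeR). edgeR 4.0.16 and DESeq2 1.42.0 on the recovered reads, voom, other scalings, pseudocounts and filters, leaving out each plant, and dropping the 4 plants with raised regions were alternatives. Counts per chromosome under other settings were added after seeing the data. Scripts were tested on simulated data. Organelle shares were compared by an exact 2-sided permutation test over plants (scipy 1.17.1).

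The members and gene lists were chosen with earlier results of these data known. Named were, among members averaging 10 or more normalized counts, the 12 with the smallest unadjusted p in each direction, in each list the members with an unadjusted p under 0.05 or else the one with the smallest p, EIN3, RPS5A (whose promoter is in a construct of these plants), SCO1 and HTR12 (from constructs the study used elsewhere), and the 5 genes with the highest mean TPM. Some genes named by these rules are counted but not described above. All other gene names, further list members included, were chosen after their values were seen. Gene names came from the RefSeq annotation TAIR10.1, which matched 21283 IDs. Its build differs from that of the files, so positions are given as gene order only. P-values measure the spread between plants, and nothing states whether the plants of a group came from separate crosses.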

Additional observations from a re-analysis of the deposited data

Results flagged for a closer look

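In 14 of 201 groups of 5 plants or shares tested, 1 plant stood apart from the other 4 by Dixon's criterion at 95%, which chance gives in about 1 of 20 groups (10.05 of these). TT plant 4 stood apart 4 times, with 210.1 normalized counts for AT5G18430 (others 164.2 to 176.5), 220.8 for XTH30 (others 52.6 to 76.9), 684253 for LHCB1.3 (others 457618 to 514620) and 7774 for MT1A (others 3822 to 4679). Among the lower genes, CYP71B26 had 1568 in BT plant 3 (others 1146 to 1247), AT3G19515 had 284.2 in BT plant 5 (others 221.1 to 239.2) and AT1G71680 had 27.5 in BD plant 5 (others 17.2 to 19.8). The high BT values of CYP71B26 and AT3G19515 lay towards the diploids.

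Among the higher genes, AT1G11340 had 111.9 in TT plant 5 (others 121.0 to 123.5) and MPK12 had 337.9 in TT plant 2 (others 325.1 to 327.1), both small gaps beside very even plants. KRP3 had 62.2 in BD plant 4 (others 33.7 to 35.6), and MT1A had 2523 in BT plant 2 (others 6549 to 7081). At few reads, AT3G26770 had 7.62 in BT plant 2 (others 2.80 to 3.90) and ATMG00570 had 3.56 in TT plant 1 (others 1.91 to 2.17). The mitochondrial share of normalized counts was 0.0077% in TT plant 1 (others 0.00364% to 0.00417%).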

How the results depend on the processing

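The count of genes past the adjusted threshold was 0 under every alternative run. Counts at an unadjusted p under 0.05 here also require one direction in BT and TT. Against 278 such genes, limma with array weights gave 585 (257 higher, 328 lower) and a mean normalized count of at least 10 gave 172 (67 higher). Higher genes numbered 80 in DESeq2 and 64 in edgeR with filterByExpr, against 126. Genes without overlap between ploidies (2 higher, 5 lower) numbered 1 higher on TPM, 0 higher and 3 lower with a mean of at least 10, 29 and 38 without the 4 plants with raised regions, and 7 and 18 without the plants numbered 1, counts resting on fewer plants by construction. Leaving out 1 plant at a time gave 234 to 435 such genes, 105 to 223 higher and 114 to 228 lower, with 435 and 223 without BT plant 5, 3887 to 5603 higher and 4243 to 6211 lower genes of one direction, and 2 to 8 higher and 5 to 12 lower genes without overlap. Of 36 named genes with an unadjusted p under 0.05, 8 lost it when 1 plant was left out and 30 kept it without the 4 plants. Among 2139 values of named genes, none that was called changed sign. Values near 0 that were not called did, such as the log2 fold change of LHCB1.3, from -0.15 to 0.07 when 1 plant was left out.

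Same-numbered plants of different groups correlated at 0.05 (BT with BD), 0.08 (TT with BD) and 0.17 (TT with BT) on average. Single pairs ran from -0.69 to 0.55. Plants of unlike number correlated at -0.003, -0.03 and -0.04 in the same comparisons. There 3, 2 and 2 of 5 plants were closest to their own number, and whether same-numbered plants shared a batch was not tested. With the replicate number as a block, 0 genes passed the adjusted threshold and 296 had an unadjusted p under 0.05 and one direction (137 higher, 159 lower). With 5 diploid plants, the 95% interval was narrow only at higher expression, and 17.3% of genes in the lowest of 4 TPM classes had one within 1.5-fold.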
